A study of Homo sapiens with 8 samples.

Results

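A549 is a human lung adenocarcinoma cell line, and 9 genes that mark lung lineage or lung epithelial secretion were followed in it: NKX2-1, FOXA1, FOXA2, SFTPB, ABCA3, MUC1, MUC5AC, MUC5B and CEACAM6. They were picked by symbol, and each was found in both deposited expression tables under its Ensembl identifier as GENCODE release 29 assigns it, 9 genes of 66206 listed per table. RNA was sequenced in 8 libraries, 2 in each of 4 groups: A549 cells given 25 pmol of a locked nucleic acid (LNA) gapmer, an antisense oligonucleotide directed at the non-coding RNA LY6K-AS, cells given 25 pmol of a scramble LNA gapmer, cells given 40 pmol of an siRNA against YWHAG, which encodes 14-3-3 gamma, and cells given 40 pmol of a scramble siRNA. Total RNA came from 100000 cells per sample. Libraries are named by their titles, LNA1 and LNA3 for LY6K-AS knockdown, si1 and si2 for YWHAG knockdown; whether the 2 libraries of a group received different oligonucleotides is not stated. The scramble siRNA libraries are called 2 and 3 after their table columns. Replicates are not stated to be separate cultures, and the p-values therefore cover a spread that may be only technical.

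NKX2-1 is a homeodomain factor that specifies the lung and drives surfactant genes in alveolar type 2 cells, where it works with the forkhead pioneer factors FOXA1 and FOXA2. Surfactant protein B and the lipid transporter ABCA3 are needed to build lamellar bodies, the organelles that store surfactant, whereas MUC5AC and MUC5B are the gel-forming mucins of airway secretions. In lung adenocarcinoma, loss of NKX2-1 is known from mouse models to go with a mucinous, gastric-type differentiation that depends on FOXA1 and FOXA2.

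Promoter sequences of NKX2-1, FOXA1 and ABCA3 are shown because the low level of the first and the differences of the others carry most of what follows. They come from RefSeq (build GRCh38.p14), run from 250 bases before to 50 bases after the annotated start, and are read 5′ to 3′ along the gene. Capitals mark matches to a forkhead motif, spelled TGTTTAC or TGTTTGC, or to the NKX2-1 core CTCAAG, each searched on both strands, with no overlapping matches.
NKX2-1, chr14:36520183-36520482, minus strand: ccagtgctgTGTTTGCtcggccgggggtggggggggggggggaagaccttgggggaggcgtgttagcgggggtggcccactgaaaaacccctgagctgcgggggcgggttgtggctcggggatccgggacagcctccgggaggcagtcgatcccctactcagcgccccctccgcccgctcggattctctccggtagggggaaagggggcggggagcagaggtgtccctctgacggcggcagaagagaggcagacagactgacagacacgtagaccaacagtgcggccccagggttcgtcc
FOXA1, chr14:37595200-37595499, minus strand: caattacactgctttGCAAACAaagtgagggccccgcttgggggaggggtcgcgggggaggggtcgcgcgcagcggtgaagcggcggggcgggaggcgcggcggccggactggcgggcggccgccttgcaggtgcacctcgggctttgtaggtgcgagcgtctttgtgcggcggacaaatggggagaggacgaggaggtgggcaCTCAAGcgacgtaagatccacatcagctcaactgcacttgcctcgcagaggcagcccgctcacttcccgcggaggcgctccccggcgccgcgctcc
ABCA3, chr16:2340679-2340978, minus strand: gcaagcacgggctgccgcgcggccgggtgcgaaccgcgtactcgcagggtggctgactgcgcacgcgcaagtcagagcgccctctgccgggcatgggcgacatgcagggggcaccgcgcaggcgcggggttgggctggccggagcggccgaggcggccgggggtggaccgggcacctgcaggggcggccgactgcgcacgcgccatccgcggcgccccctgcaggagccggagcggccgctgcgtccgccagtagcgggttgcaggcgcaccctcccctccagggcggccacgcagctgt
The NKX2-1 window held TGTTTGC at −241 to −235 from the start. The FOXA1 window held TGTTTGC on the other strand at −235 to −229 and CTCAAG at −46 to −41. No match was found in the ABCA3 window, which has a GC content of 78.0%. Among the other members, the MUC1 window held CTCAAG at 10 to 15, and the SFTPB and CEACAM6 windows held none of these letters; the promoters of 6 of the 9 members were matched in the RefSeq table. Of 35116 RefSeq promoters of this length, 7.17% held either forkhead spelling and 12.4% held CTCAAG, so a match is a description and not a binding site.

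Levels are given as RPKM, which scales reads by the length of merged exons and by sequencing depth. The depth behind it was 26.2 M to 34.0 M reads in the LNA table and 33.7 M to 34.6 M in the siRNA table (M, 1e6 reads), so that 3 reads, taken as the detection floor, equalled 0.0868 to 0.115 RPM (reads per M). The gene taken as LY6K-AS, LNCOC1, had 3 and 8 reads in the knockdown libraries LNA1 and LNA3, against 34 and 17 reads in the scramble LNA libraries. YWHAG had 13.5 and 4.91 RPKM in the libraries si1 and si2, against 163 and 158 RPKM in the scramble siRNA libraries. As a marker check, KRT18 (mean 327 RPKM over the 4 controls) and KRT8 (303 RPKM), keratins of simple epithelia, were abundant. Of 7 immune markers CD14 alone passed the filter on low values, with a mean of 2.27 RPKM over the 4 controls, and the lymphocyte markers CD3E and MS4A1 were at 0 in all 8 libraries. The summed immune level was 2.09 to 3.35 RPKM in the LY6K-AS knockdown libraries, against 1.97 to 2.30 RPKM in scramble LNA, and 0.650 to 1.63 RPKM in the YWHAG knockdown libraries, against 2.19 to 2.93 RPKM in scramble siRNA; its part in the members' levels was not tested. Of 12 alveolar type 2 markers, 3 passed the filter on low values in the LNA table (ABCA3, ETV5 and NAPSA) and 2 in the siRNA table (ABCA3 and ETV5); SFTPA2 was at 0 in all 8 libraries.

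The first question was which of the 9 genes A549 cells express when only scramble oligonucleotides are given. FOXA1, FOXA2, ABCA3, MUC5AC, MUC5B and CEACAM6 were expressed in every control, MUC1 was low, and NKX2-1 and SFTPB were at or near the detection floor. A gene that overlaps MUC1 on its own strand leaves the MUC1 level uncertain. In the scramble LNA libraries the order from the top was FOXA2 with a mean of 24.0 RPKM, MUC5AC with 17.7, CEACAM6 with 16.0, ABCA3 with 13.3, FOXA1 with 7.51, MUC5B with 6.44 and MUC1 with 0.929 RPKM. The ranges of neighbours in that order did not overlap. In the scramble siRNA libraries CEACAM6 led with a mean of 161 RPKM, rank 155 of 19693 protein-coding genes, followed by FOXA1 with 10.3, FOXA2 with 8.97, MUC5B with 5.50, ABCA3 with 4.49, MUC5AC with 4.08 and MUC1 with 0.858 RPKM. FOXA1 and FOXA2 overlapped in range there, and the other neighbours did not.

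**Figure D1:**
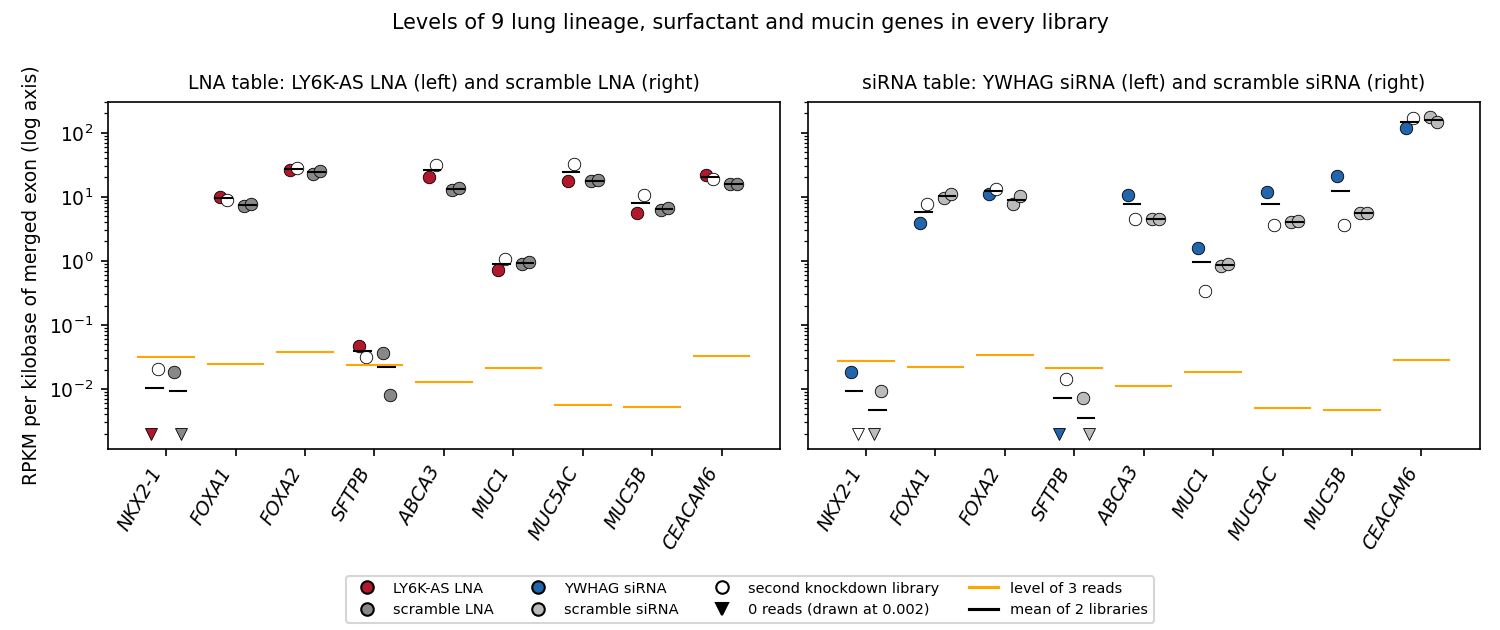
RPKM per kilobase of merged exon (log axis) of the 9 genes in every library, LNA table on the left and siRNA table on the right; each point is a library, black bars are means of 2 libraries, and orange bars are the level of 3 reads in the control with the higher floor. NKX2-1 stays below the orange bar in all 8 libraries, and CEACAM6 stands at 121 to 174 RPKM in the siRNA table.

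NKX2-1 (chromosome 14, 36516392 to 36521149, minus strand; all positions of genes are hg38, GENCODE 29) had 0 and 2 reads in LNA1 and LNA3, against 2 and 0 reads in scramble LNA 1 and 2. In the siRNA table it had 2 and 0 reads in si1 and si2, against 0 and 1 read in scramble siRNA 2 and 3. No library reached 3 reads, so no change could be measured, and in the libraries with 0 reads the floor of 3 reads equals 0.0275 to 0.0362 RPKM, with exact Poisson 95% upper limits of 0.0338 to 0.0445 RPKM. The antisense gene NKX2-1-AS1, which overlaps it on the other strand, had 0 reads in every library. SFTPB (chromosome 2, 85657314 to 85668741, minus strand), which encodes surfactant protein B, had 5 and 4 reads in the LY6K-AS knockdown libraries, against 5 and 1 reads in scramble LNA. It had 0 and 2 reads in the YWHAG knockdown libraries, against 1 and 0 reads in scramble siRNA. Its highest level was 0.0465 RPKM (exact Poisson 95% interval 0.0151 to 0.108, counting error only), in LNA1. Both genes fell short of the filter of 0.5 RPKM in at least 2 libraries of a table, so 7 of the 9 genes were tested in each comparison.

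CEACAM6 differed most between the 2 sets of controls, with 16.0 RPKM in the scramble LNA libraries and 161 RPKM in the scramble siRNA libraries, a ratio of 10.1. Only 0.186% of 9156 genes of any type, each with a mean of at least 1 RPKM in both sets of controls, had a lower ratio of scramble LNA to scramble siRNA. MUC5AC lay at the other end, 4.35-fold higher in scramble LNA, followed by ABCA3 at 2.97-fold and FOXA2 at 2.68-fold higher. MUC5B was 1.17-fold higher and FOXA1 1.37-fold lower in scramble LNA. The tables were normalized separately and oligonucleotide chemistry, dose and table go together, so these ratios are given without a test and their sources cannot be told apart. The median log2 ratio over those genes was 0.16, and it ran from 0.45 where the gene's span is 1 to 2 times its exon length to −0.03 where it is 32 times or more.

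The second comparison asked what LY6K-AS knockdown did to these genes. ABCA3, FOXA1, FOXA2 and CEACAM6 had both knockdown libraries above both controls, MUC5AC and MUC5B were higher in LNA3 alone, and MUC1 did not separate the groups. None of the 7 genes tested passed the adjusted threshold of 0.05 in limma on log2(RPKM + 1), a scale that understates changes of low genes. Neither did any of the 14662 genes tested (percent called 0), with a smallest adjusted p of 0.103, while 25.3% had an unadjusted p under 0.05. Of the 7 genes, 3 were higher at an unadjusted p under 0.05 (ABCA3, CEACAM6 and FOXA1), where 13.6% of all genes tested were. The count of 4 with groups that did not overlap, all higher, stands beside 31.4% of all genes with groups apart in that direction. The other 3 had LNA1 and LNA3 on opposite sides of the control mean, as did 28.4% of all genes. In bulk RNA, fewer cells that express a gene and less of its RNA per cell cannot be told apart. The median log2 change of the 7 was 0.30, against 0.00 for all genes tested.

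ABCA3 (chromosome 16, 2275881 to 2340746, minus strand) had 20.6 and 30.9 RPKM in the LY6K-AS knockdown libraries LNA1 and LNA3, against 12.8 and 13.9 RPKM in scramble LNA 1 and 2. Both knockdown libraries were above both controls, and LNA3 was the higher. The mean ratio was 1.93 and the log2 change 0.87 ± 0.21 (SE; limma, unadjusted p = 0.0122, adjusted p = 0.124), above that of 98.5% of genes tested. Removing a trend with GC content from each library gave a smaller log2 change of 0.65 ± 0.17 (SE; limma adjusted p = 0.188). The 2 annotated genes that overlap ABCA3, ABCA17P and AC106820.1, had at most 25 reads in any library, against 1188 or more for ABCA3. The counting is not stated to use strand, so reads of overlapping genes on opposite strands cannot be told apart.

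FOXA1 (chromosome 14, 37589984 to 37596059, minus strand) had 10.1 and 8.96 RPKM in LNA1 and LNA3, against 7.27 and 7.74 RPKM in scramble LNA. The groups did not overlap and the ratio of means was 1.27, with a log2 change of 0.30 ± 0.10 (SE; limma, unadjusted p = 0.0372, adjusted p = 0.176). With a trend with GC content removed from each library, it was 0.17 ± 0.12 (SE; limma adjusted p = 0.472). FOXA2 (chromosome 20, 22581005 to 22585455, minus strand) had 26.2 and 28.2 RPKM in LNA1 and LNA3, against 22.4 and 25.7 RPKM in scramble LNA. Its groups lay side by side rather than apart, 26.2 RPKM against 25.7 RPKM at their nearest, and its log2 change of 0.17 ± 0.11 (SE; limma adjusted p = 0.366) went to −0.01 with the same correction. TTC6, which overlaps FOXA1 on the other strand, had 24 to 53 reads per library, against 532 or more for FOXA1. FOXA2 is overlapped on its own strand by AL121722.1, and how reads shared by them were counted is not given.

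CEACAM6 (chromosome 19, 41750977 to 41772208, plus strand), a cell-surface adhesion protein of the carcinoembryonic antigen family often abundant in lung adenocarcinoma, had 21.5 and 19.2 RPKM in LNA1 and LNA3, against 16.0 and 16.0 RPKM in scramble LNA. Both knockdown libraries were above both controls, which were nearly equal. The log2 change was 0.33 ± 0.10 (SE; limma, unadjusted p = 0.0238, adjusted p = 0.150). AC243967.1, which overlaps it on the same strand, and AC243967.2, on the other strand, had at most 6 reads in any library. Its close paralog CEACAM5 had 1.44 and 1.72 RPKM in the knockdown libraries, against 1.59 and 1.70 RPKM in scramble LNA, with groups that overlapped. How reads that match several members of this family, or that fall in overlapping genes, were counted is not given. The CEACAM6 level is uncertain to that extent.

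MUC5AC (chromosome 11, 1157953 to 1201138, plus strand) had 17.5 and 31.9 RPKM in LNA1 and LNA3, against 17.4 and 18.0 RPKM in scramble LNA. LNA1 sat within the control range and LNA3 well above it, a log2 difference of −0.02 in LNA1 and 0.81 in LNA3 from the control mean. MUC5B (chromosome 11, 1223066 to 1262172, plus strand), its neighbour in the mucin cluster, had 5.50 and 10.5 RPKM in LNA1 and LNA3, against 6.31 and 6.57 RPKM in scramble LNA. It too was high in LNA3 only, and LNA1 was below both controls. The log2 changes were 0.40 ± 0.29 for MUC5AC and 0.22 ± 0.29 for MUC5B (SE; limma adjusted p = 0.435 and 0.664), and 0.17 and −0.16 after GC correction. The gap between the 2 knockdown libraries was larger than that of 95.7% of genes for MUC5AC and 95.6% for MUC5B. MUC1 (chromosome 1, 155185824 to 155192916, minus strand), a membrane-bound mucin, had 0.713 and 1.05 RPKM in LNA1 and LNA3, against 0.892 and 0.965 RPKM in scramble LNA, on 88 to 153 reads per library. The knockdown libraries enclosed the controls, and its log2 change was −0.04 ± 0.13 (SE; limma adjusted p = 0.862). AL713999.1, which overlaps MUC1 on the same strand, and MUC5B-AS1, antisense to MUC5B, had 0 reads in every library. How reads shared by overlapping genes were counted is not given. The low MUC1 level is uncertain to that extent, and the part of such reads in it was not tested. MUC5AC and MUC5B are paralogs with repeated coding sequence, and the handling of reads that match several places is not given, which leaves their levels uncertain.

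The share of reads from mitochondrial genes was 8.37% and 4.12% in LNA1 and LNA3, against 8.43% and 6.43% in scramble LNA, so the library with the highest ABCA3, MUC5AC and MUC5B also had the lowest mitochondrial share. The part of this in those levels was not tested. Leaving out either knockdown library raised the genes past the adjusted threshold to 7725 (without LNA1) and 4350 (without LNA3), against 0 with all 4 libraries. In those fits the residual spread came from the 2 controls alone. Over genes, the SD of the log2 difference was 0.40 between the 2 knockdown libraries and 0.16 between the 2 controls. Without LNA1 the log2 change was 1.15 for ABCA3, 0.23 for FOXA1 and 0.25 for CEACAM6. Without LNA3 it was 0.59, 0.38 and 0.41 for the same genes. MUC5AC and MUC5B had log2 changes of 0.81 and 0.63 without LNA1, whereas without LNA3 they had −0.02 and −0.19.

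**Figure D2:**
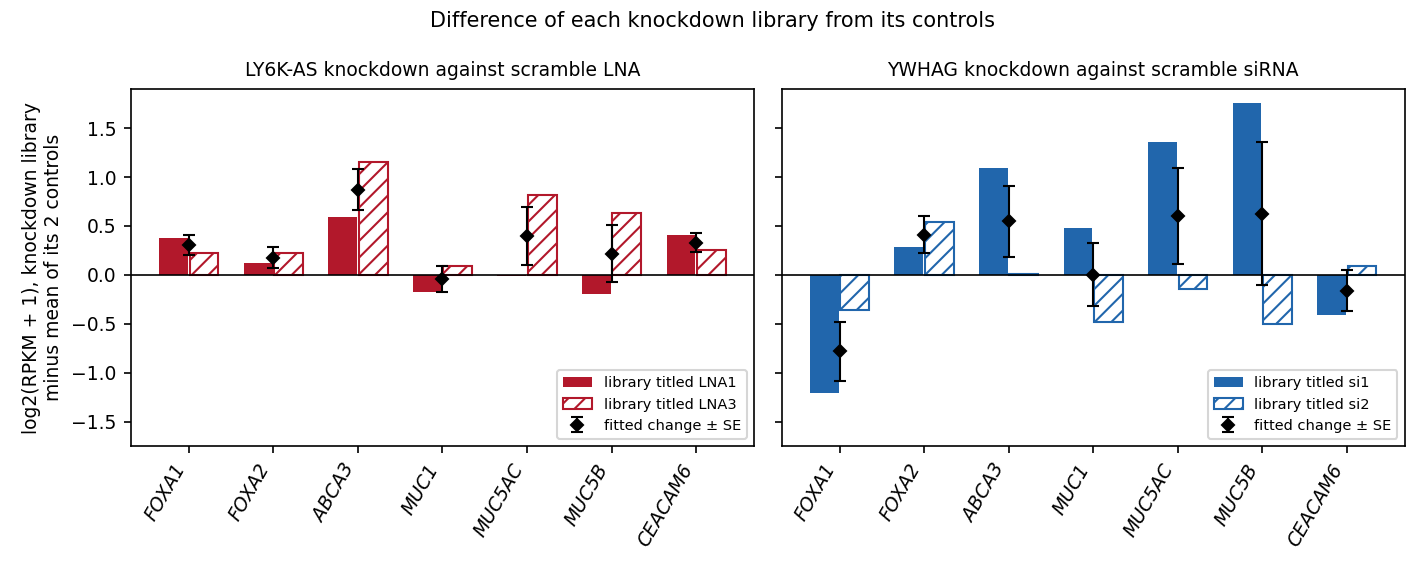
Difference in log2(RPKM + 1) of each knockdown library from the mean of its 2 controls (bars, filled and hatched) for the 7 genes tested, with the fitted log2 change and its SE (diamonds); LY6K-AS knockdown on the left, YWHAG knockdown on the right. ABCA3 is above 0 in LNA1 and LNA3, and the si1 and si2 bars of MUC5B point in opposite directions, at 1.76 and −0.51.

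The third comparison asked the same of YWHAG knockdown. FOXA1 was lower and FOXA2 higher in both knockdown libraries than in both controls. MUC5B, MUC5AC, ABCA3 and MUC1 were high in the library si1 and not in si2. No gene among the 7 passed the adjusted threshold in limma, and none of the 13903 tested did (percent called 0; smallest adjusted p 0.130, which YWHAG itself shared), while 16.4% had an unadjusted p under 0.05. FOXA1 was the only member under that unadjusted value, on the lower side, where 8.90% of all genes were. Groups did not overlap for 2 genes on the higher side (FOXA2 and, by a narrow margin, ABCA3) and for FOXA1 on the lower side, against 20.4% and 30.8% of all genes. Of the 7 genes, 4 had the 2 knockdown libraries on opposite sides of the control mean, against 34.6% of all genes tested. The median log2 change of the 7 was 0.41, with 0.48 in si1 and −0.15 in si2, against −0.05 for all genes tested.

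FOXA1 had 3.87 and 7.77 RPKM in si1 and si2, against 9.56 and 10.9 RPKM in scramble siRNA 2 and 3. Both knockdown libraries were below both controls, si1 far more than si2. The ratio of means was 0.568 and the log2 change −0.78 ± 0.30 (SE; limma, unadjusted p = 0.0487, adjusted p = 0.304), with −1.21 in si1 and −0.36 in si2. FOXA2 had 11.0 and 13.4 RPKM in si1 and si2, against 7.62 and 10.3 RPKM in scramble siRNA. The groups did not overlap, but the controls differed from each other by 0.39 on the log2 scale, close to the log2 change of 0.41 ± 0.19 (SE; limma adjusted p = 0.359). The 2 forkhead factors therefore lay on opposite sides of their controls, FOXA1 below and FOXA2 above, in each YWHAG knockdown library.

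MUC5B had 21.0 and 3.58 RPKM in si1 and si2, against 5.50 and 5.50 RPKM in scramble siRNA. One knockdown library was 3.81-fold above the control mean and the other at 0.651 of it, while the controls were nearly equal. The log2 gap between si1 and si2 was 2.26, larger than that of 99.9% of genes tested. MUC5AC had 12.0 and 3.58 RPKM in si1 and si2, against 4.01 and 4.15 RPKM in scramble siRNA, again high in si1 and below both controls in si2. MUC1 had 1.59 and 0.333 RPKM in si1 and si2, against 0.836 and 0.880 RPKM in scramble siRNA, with si1 above and si2 below. The log2 changes over both libraries were 0.63 ± 0.73 for MUC5B, 0.60 ± 0.49 for MUC5AC and −0.00 ± 0.32 for MUC1 (SE; limma adjusted p = 0.696, 0.571 and 1.00), which average libraries that differ in direction.

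ABCA3 had 10.7 and 4.51 RPKM in si1 and si2, against 4.49 and 4.49 RPKM in scramble siRNA. It was 2.38-fold above the control mean in si1 and at 1.00 of it in si2, so the groups were apart only by the third digit, and the log2 change was 0.55 ± 0.36 (SE; limma adjusted p = 0.497). CEACAM6 had 121 and 170 RPKM in si1 and si2, against 174 and 148 RPKM in scramble siRNA. The groups overlapped, with si1 lowest, and the log2 change was −0.16 ± 0.21 (SE; limma adjusted p = 0.735). CEACAM5 overlapped between the groups as well, with 8.16 and 5.71 RPKM in si1 and si2, against 8.05 and 6.27 RPKM in scramble siRNA.

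YWHAG itself was lower in si2 (4.91 RPKM) than in si1 (13.5 RPKM), and the mitochondrial share was 14.0% and 18.2% in si1 and si2, against 15.3% and 18.2% in scramble siRNA. Their part in the split between si1 and si2 was not tested. Genes at least 1 log2 unit above the control mean made up 1.95% of all genes in si1 and 0.820% in si2. MUC5B, MUC5AC and ABCA3 were among them in si1 and none of the 7 genes was in si2. Without si1, the signs of MUC5AC, MUC5B and CEACAM6 turned round (log2 changes −0.15, −0.51 and 0.09), and without si2 MUC1 had a log2 change of 0.48.

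The difference between the knockdowns was tested in a fit over all 8 libraries, as the LY6K-AS effect minus the YWHAG effect, each within its own table. It passed the adjusted threshold for 23 of 12861 genes (percent called 0.179) and for none of the 7. FOXA1 came nearest: its log2 change was 0.30 with LY6K-AS knockdown and −0.78 with YWHAG knockdown, a difference of 1.08 ± 0.36 (SE; limma, unadjusted p = 0.0181, adjusted p = 0.166). An unadjusted p under 0.05 in that direction was found for 11.5% of all genes. The difference depended on the YWHAG libraries: it was 0.66 without si1 (limma adjusted p = 0.0741) and 1.51 without si2 (limma adjusted p = 0.0181), fits in which the lone YWHAG library is assumed to vary like the other groups. With any other library left out it was 1.00 to 1.17, with adjusted p of 0.176 to 0.494 in limma. CEACAM6 followed with a difference of 0.49 ± 0.25 (SE; limma adjusted p = 0.321). For ABCA3, FOXA2, MUC5AC, MUC5B and MUC1 the adjusted p lay between 0.595 and 0.966, and the SE of the 2 secreted mucins, 0.65 for MUC5AC and 0.90 for MUC5B, was the widest of the 7.

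How the genes varied together was described over the 8 libraries, after log2(RPKM + 1) was centred on the mean of each table. These points share tables, controls and depth, so the correlations are descriptions and carry no p. MUC5AC and MUC5B had a Pearson r of 0.97, both high in si1 and LNA3. ABCA3 had an r of 0.91 with MUC5AC and 0.81 with MUC5B. FOXA1 had an r of −0.76 with MUC5B, −0.71 with MUC5AC and 0.76 with CEACAM6. In si1 FOXA1 was below both controls and both mucins were above them. In LNA3, however, FOXA1 and both mucins were above both controls, and in si2 they were below both. FOXA1 and FOXA2 had an r of −0.21.

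**Figure D3:**
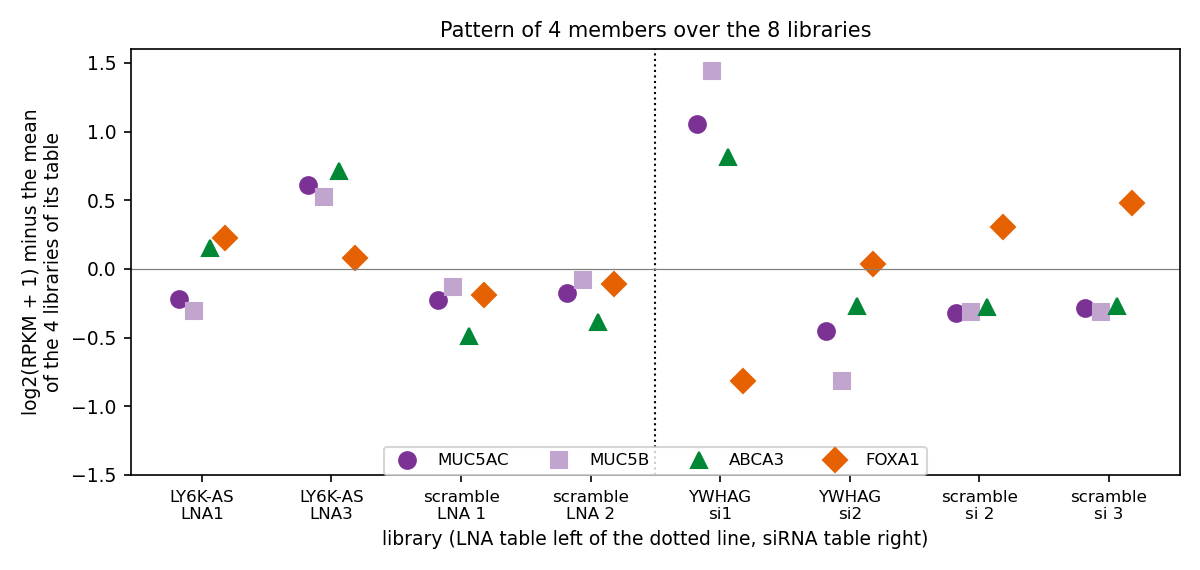
log2(RPKM + 1) of MUC5AC, MUC5B, ABCA3 and FOXA1 minus the mean of the 4 libraries of its table, for every library; knockdown libraries stand left of their controls within each table. MUC5AC, MUC5B and ABCA3 are highest in LNA3 and in si1, and FOXA1 is lowest in si1.

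Among 9921 protein-coding genes with a mean of at least 1 RPKM in each table, the gene whose pattern over the 8 libraries was most like MUC5AC was FOS (r = 0.99), an immediate-early transcription factor. FOS had 1.66 and 4.57 RPKM in LNA1 and LNA3, against 1.55 and 1.67 RPKM in scramble LNA. It had 11.7 and 2.95 RPKM in si1 and si2, against 2.76 and 3.35 RPKM in scramble siRNA. High values thus fell in LNA3 and si1, as for MUC5AC. TMEM43 and the phosphatase gene DUSP1 came next for MUC5AC (both r = 0.99). PKDCC, STAT5B and GCC2 were nearest to MUC5B (r = 0.99 each), and PPP1R15A, a stress-induced phosphatase subunit, DAGLB and PRAG1 were nearest to ABCA3 (r = 0.99 each). ZNF341 (r = 0.99) and NDOR1 (0.98) were among the 3 genes nearest to FOXA1. FOXA2 was most like TMEM106B (0.98), TIMM29 (0.96) and RPS15 (0.95), and CEACAM6 most like SCARB2 (0.98), FBXO41 (0.97) and SMAD6 (0.97). With 8 points and so many genes, such values describe likeness only.

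Other genes of the same pathways were read from lists of lung lineage factors, surfactant and lamellar body genes, mucin and goblet cell genes, and the CEACAM family, which include members. No gene of these lists passed the adjusted threshold in limma in either comparison. With LY6K-AS knockdown, 6 of 29 lineage factors tested were higher and 2 lower at an unadjusted p under 0.05, with a median log2 change of 0.17 (all genes: 13.6% higher, 11.7% lower). CEBPB, a regulator of epithelial differentiation, had 101 and 153 RPKM in LNA1 and LNA3, against 57.0 and 64.6 RPKM in scramble LNA (log2 change 1.02 ± 0.23 SE, limma adjusted p = 0.116). KLF5, a factor of airway and alveolar epithelium, had 23.4 and 25.4 RPKM in LNA1 and LNA3, against 17.1 and 18.2 RPKM in scramble LNA. ID2 was on the lower side, with 13.7 and 21.4 RPKM in LNA1 and LNA3, against 26.2 and 27.8 RPKM in scramble LNA. With YWHAG knockdown 1 of 30 lineage factors was higher and 5 lower, with a median of −0.02 (all genes: 7.51% higher, 8.90% lower). The ETS factor EHF had 3.43 and 3.68 RPKM in si1 and si2, against 6.98 and 5.89 RPKM in scramble siRNA. RARB, a retinoic acid receptor, had 5.38 and 4.18 RPKM in si1 and si2, against 8.61 and 8.37 RPKM in scramble siRNA.

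Of 31 surfactant and lamellar body genes 13 were tested with LY6K-AS knockdown, 2 of them higher (ABCA3 and CTSH) and 0 lower at an unadjusted p under 0.05, with a median of −0.01; 2 of 13 is near the share of 13.6% of all genes that were higher. CTSH, a protease that processes surfactant proteins, had 4.09 and 4.52 RPKM in LNA1 and LNA3, against 2.94 and 2.79 RPKM in scramble LNA. With YWHAG knockdown 15 were tested, 1 of them higher and 0 lower, with a median of 0.04, against 7.51% and 8.90% of all genes. That gene was CHPT1, which makes phosphatidylcholine, at 9.75 and 14.0 RPKM in si1 and si2, against 6.34 and 8.02 RPKM in scramble siRNA. The lipid desaturase gene SCD, the most abundant of the list, had 154 and 171 RPKM in LNA1 and LNA3, against 160 and 170 RPKM in scramble LNA, and 163 and 195 RPKM in si1 and si2, against 147 and 139 RPKM in scramble siRNA.

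Among mucin and goblet cell genes, 5 of 20 tested were higher and 0 lower at an unadjusted p under 0.05 with LY6K-AS knockdown, with a median of 0.20 (all genes: 13.6% higher, 11.7% lower). The trefoil peptide gene TFF1, of gastric mucous cells, had 7.90 and 6.05 RPKM in LNA1 and LNA3, against 2.67 and 2.85 RPKM in scramble LNA (log2 change 1.08 ± 0.15 SE, limma adjusted p = 0.103). GALNT12, which starts mucin-type O-glycans, had 4.68 and 6.36 RPKM in LNA1 and LNA3, against 2.14 and 2.42 RPKM in scramble LNA. Both genes were named for the smallest p of the list, a choice that favours genes whose LNA1 and LNA3 agree. Their agreement is therefore not set against MUC5AC and MUC5B. With YWHAG knockdown 2 of 16 were higher and 2 lower, with a median of 0.02 (all genes: 7.51% and 8.90%). AGR2, a disulfide isomerase needed for mucin folding, had 113 and 109 RPKM in si1 and si2, against 74.9 and 67.0 RPKM in scramble siRNA. GCNT3, a mucin glycan-branching enzyme, had 18.6 and 16.7 RPKM in si1 and si2, against 30.6 and 26.9 RPKM in scramble siRNA. AGR2 and GCNT3 had the smallest p of the list here, which favours genes whose si1 and si2 agree. No contrast with the mucins is drawn from that.

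In the CEACAM family 3 of 5 genes tested were higher at an unadjusted p under 0.05 with LY6K-AS knockdown (CEACAM6, CEACAM1 and CEACAM16), where 13.6% of all genes were. With YWHAG knockdown 0 of 4 had such a p in either direction, against 16.4% of all genes. CEACAM1 had 1.22 and 2.13 RPKM in LNA1 and LNA3, against 0.480 and 0.581 RPKM in scramble LNA. It had 3.24 and 1.13 RPKM in si1 and si2, against 4.01 and 3.36 RPKM in scramble siRNA.

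**Figure D4:**
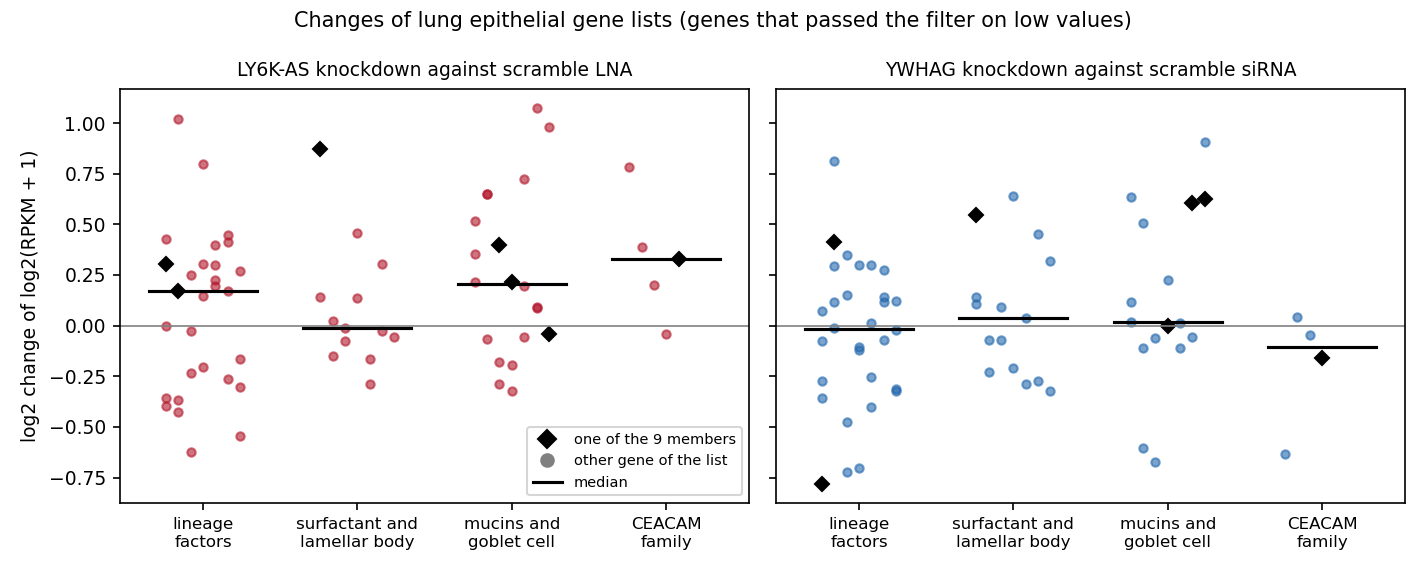
Fitted log2 change of log2(RPKM + 1) for each gene that passed the filter on low values in 4 lung epithelial lists, LY6K-AS knockdown on the left and YWHAG knockdown on the right; diamonds are members, circles other genes, bars the median of each list. In the surfactant list, whose median is −0.01 with LY6K-AS knockdown, ABCA3 stands highest at 0.87.

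Markers of other epithelia were read beside these. HNF4A, a gastrointestinal and hepatic factor that can appear where NKX2-1 is lost, had 12.8 and 9.91 RPKM in LNA1 and LNA3, against 15.0 and 16.0 RPKM in scramble LNA. It had 4.06 and 9.84 RPKM in si1 and si2, against 9.49 and 9.14 RPKM in scramble siRNA, so that si1 was low in HNF4A as in FOXA1. Of 15 gastrointestinal markers 4 were tested in each table. With LY6K-AS knockdown 3 changed up and 1 down, with a median log2 change of 0.16. At an unadjusted p under 0.05 in limma, TFF1 was higher and HNF4A lower (all genes: 13.6% and 11.7%). With YWHAG knockdown 1 changed up and 3 down, with a median of −0.18 and 0 at that p (all genes: 16.4%). The summed level of all 15 markers was 23.1 to 27.1 RPKM in the LY6K-AS knockdown libraries, against 22.7 to 24.2 RPKM in scramble LNA. It was 8.64 to 14.5 RPKM in the YWHAG knockdown libraries, against 14.3 to 14.7 RPKM in scramble siRNA. None of 7 club cell markers passed the filter in either table; SCGB3A2 and BPIFA1 were at 0 in all libraries. Of 8 ciliated cell markers 3 were tested with LY6K-AS knockdown, and CAPS and CCDC78 were higher at an unadjusted p under 0.05 (all genes: 13.6%), with a list median of 0.54. The summed level of all 8 ciliated markers was 13.4 to 33.9 RPKM in the LY6K-AS knockdown libraries, against 11.0 RPKM in both scramble LNA libraries. TPPP3, a tubulin-binding protein gene, accounted for most of the upper value, with 3.22 and 23.6 RPKM in LNA1 and LNA3, against 3.83 and 4.10 RPKM in scramble LNA, and so was high in LNA3 as MUC5AC and MUC5B were. With YWHAG knockdown 2 ciliated markers were tested and 0 had an unadjusted p under 0.05. Of 10 alveolar type 1 markers, 5 were tested with LY6K-AS knockdown. At an unadjusted p under 0.05 GPRC5A was higher and RTKN2 and EMP2 lower (all genes: 13.6% and 11.7%). The median log2 change of the 5 was −0.27, with 2 on the higher side and 3 on the lower. With YWHAG knockdown 4 were tested, with 0 in either direction at that p (all genes: 16.4%) and a median of −0.09. The most abundant of the list in the controls were CAV1 (mean 70.6 RPKM over the 4 controls) and GPRC5A (41.8 RPKM). The summed level of the list was 182 to 190 RPKM in the LY6K-AS knockdown libraries, against 155 to 160 RPKM in scramble LNA. It was 48.7 to 135 RPKM in the YWHAG knockdown libraries, against 81.5 to 82.1 RPKM in scramble siRNA. Of 7 basal markers 2 were tested in each table, TP63 and SOX2. TP63 was lower with YWHAG knockdown at an unadjusted p of 0.0253 in limma (all genes under 0.05 and lower: 8.90%). SOX2 changed up there (limma unadjusted p = 0.246), and the median log2 change of the 2 was −0.03. The part of these other markers in the members' levels was not tested. General epithelial genes lay on both sides: with LY6K-AS knockdown 1 of 6 tested was higher and 0 lower at an unadjusted p under 0.05 (all genes: 13.6% and 11.7%), and with YWHAG knockdown 2 of 5 were higher and 1 lower (all genes: 7.51% and 8.90%). KRT19 had 86.9 and 120 RPKM in LNA1 and LNA3, against 37.4 and 39.3 RPKM in scramble LNA. CDH1, encoding E-cadherin, had 10.9 and 13.5 RPKM in si1 and si2, against 4.63 and 4.42 RPKM in scramble siRNA (log2 change 1.25 ± 0.15 SE, limma adjusted p = 0.130). EPCAM, an epithelial adhesion gene, was on the lower side, with 4.39 and 7.20 RPKM in si1 and si2, against 9.04 and 10.6 RPKM in scramble siRNA.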

How the data were processed

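The authors deposited RPKM per gene in 2 tables, for the LNA and the siRNA libraries, normalized separately; the submitters' processing notes list STAR, featureCounts, Subread, Picard and the build hg38, without version or role. Multiplying RPKM by candidate lengths gave whole reads (within 0.05) for 100% of values with gene end minus start in the LNA table and merged exon length in the siRNA table. LNA values were therefore rescaled to merged exon length (GENCODE 29; 52238 of 66206 identifiers match in version, all 9 members among them); whether intronic reads were counted is not given. Intervals and the floor of 3 reads cover counting error only.

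Each knockdown was compared with its own controls in limma 3.58.1 (R 4.3.3), with trend, on log2(RPKM + 1), two-sided, for genes at 0.5 RPKM or more in at least 2 of 4 libraries, with Benjamini-Hochberg adjustment and 2 residual degrees of freedom (4 in the joint fit). Fits were tested on simulated data. Members, lists and rules were chosen with earlier results of these data known. Named list genes were the 2 most abundant in controls or the 2 with smallest p per comparison, given where they bear on the members. Alternatives were other pseudocounts, no filter, quantile and median scaling, GC correction, deposited values, voom on recovered reads, pooled spread, a replicate block and leaving out libraries. One gene that the likeness rule names is not reported here.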

Additional observations from a re-analysis of the deposited data

How the results depend on the processing

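No member passed the adjusted threshold in any comparison under any alternative other than leaving out a library; there, 176 of 182 values of members kept their sign and 6 turned round. These were FOXA2 (−0.012) and MUC5B (−0.16) with LY6K-AS knockdown after GC correction, MUC1 with YWHAG knockdown under quantile scaling (0.040), median centring (0.035) and GC correction (0.000944), and the MUC1 difference between knockdowns with a pseudocount of 0.1 (0.075). Of 112 values with 1 library left out, 15 turned round. With LY6K-AS knockdown these values spanned −0.17 to 0.088 for MUC1, −0.017 to 0.81 for MUC5AC and −0.19 to 0.63 for MUC5B. With YWHAG knockdown they spanned −0.48 to 0.48 for MUC1, −0.15 to 1.35 for MUC5AC, −0.51 to 1.76 for MUC5B and −0.41 to 0.086 for CEACAM6. For the difference between knockdowns they spanned −0.22 to 0.87 for ABCA3, −0.52 to 0.44 for MUC1, −0.96 to 0.55 for MUC5AC and −1.54 to 0.72 for MUC5B. The members' median spanned −0.15 to 0.55 with YWHAG knockdown and 0.12 to 0.33 with LY6K-AS knockdown, and it was 0.17 there after GC correction.

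Over all genes, calls with LY6K-AS knockdown ranged from 0 to 7725 with 1 library left out, and with YWHAG knockdown they were 0 throughout. With the spread pooled over 8 libraries 64 and 214 genes passed, with no member among them. The 23 calls on the difference became 5 with no filter, 85 with LNA values as deposited, and 0 to 1185 with 1 library left out. Voom on recovered reads, run on each knockdown but not on their difference, called 0 genes (3338 and 1940 at an unadjusted p under 0.05). Leaving out genes with no GENCODE match with YWHAG knockdown, an alternative chosen after seeing the data, called 0 genes (2276 unadjusted). Same-numbered LNA libraries deviated with a correlation of 0.08, so the numbers are not shown to pair them; the fit with a replicate block also called 0 genes (3432 unadjusted). The scramble siRNA columns carry other numbers than the labels, so no block was fitted there. Without rescaling, scramble LNA levels would be 1.61 RPKM for ABCA3 and 2.30 RPKM for CEACAM6. The causes of these shifts were not tested. At this depth NKX2-1 and SFTPB could not be compared.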
